A study of Mus musculus with 30 samples.

Results

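The genes described here make cholesterol, sense it, move it in and out of the cell, or make the fatty acids that are regulated with it. The set was named gene by gene and holds 31 members, of which 30 have a row in the tables; Hmgcs1, which makes HMG-CoA from acetoacetyl-CoA, was not analysed here. The tables hold 25520 gene symbols for untreated cells and 25410 for the hormone experiment. All libraries came from IDG-SW3, 1 mouse line of bone-forming cells that carries a temperature-sensitive immortalizing gene and matures in culture from an osteoblast into an osteocyte. Every culture was expanded at a permissive temperature with interferon-gamma, then moved without it to warmer osteogenic medium with fetal bovine serum, ascorbic acid and beta-glycerol phosphate. Untreated cells were harvested on day 3, on day 7 and every 7 days from then to day 35 (3 libraries at each of 6 times, 18 in all). In a separate experiment, cells at day 3 or day 35 received 100 nM 1,25(OH)2D3, the active vitamin D hormone, or its ethanol vehicle for 24 h before harvest (3 libraries in each of 4 groups, 12 in all). The submitters call the replicates biological, and all are cultures of 1 line, so p-values measure the spread between cultures. Untreated cells were measured in RPKM (reads scaled to transcript length and to the reads of the library) and the hormone experiment in counts from another library kit. Levels are therefore not compared between the experiments.

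Cholesterol is built from acetyl-CoA through mevalonate and isoprenoid units to squalene, which is closed into lanosterol and trimmed in a series of steps to cholesterol. The transcription factor SREBP-2, made from Srebf2, drives most genes of the route. When sterols are plentiful, the Insig proteins hold SREBP and its escort Scap in the endoplasmic reticulum and the genes fall silent. In bone cells the route also supplies the prenyl groups of small GTPases, and the farnesyl diphosphate synthase encoded by Fdps is the target of the nitrogen-containing bisphosphonates used against bone loss.

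Promoters were read for 22 members, with their starts as annotated in RefSeq (GRCm38.p6, 250 bases before the start and 50 after it; Sc4mol is listed there as Msmo1). The motif CCAAT, which NF-Y binds next to SREBP sites, was present on either strand in at least 1 annotated promoter of 19 of the 22 members (86.4%) and of 41.1% of 27025 genes. TCACNCCAC, a classical sterol regulatory element, was present in the promoter of Hmgcs1 alone among the 22, and in 1.44% of genes. The 3 promoters shown belong to Idi1, the member with the smallest adjusted p in vehicle cells between the days, and to Hsd17b7 and Insig2, the members that rose with the hormone at day 35. They were chosen after these values were seen, and of the 3 annotated starts of Insig2 the 1 whose promoter holds CCAAT is shown; the promoters of the other two hold no match. Capitals mark CCAAT, or ATTGG where it lies on the other strand, and the window of Idi1 is chr13:8885356-8885655 on the plus strand, that of Hsd17b7 is chr1:169969156-169969455 on the minus strand, and that of Insig2 is chr1:121332540-121332839 on the minus strand.
Idi1: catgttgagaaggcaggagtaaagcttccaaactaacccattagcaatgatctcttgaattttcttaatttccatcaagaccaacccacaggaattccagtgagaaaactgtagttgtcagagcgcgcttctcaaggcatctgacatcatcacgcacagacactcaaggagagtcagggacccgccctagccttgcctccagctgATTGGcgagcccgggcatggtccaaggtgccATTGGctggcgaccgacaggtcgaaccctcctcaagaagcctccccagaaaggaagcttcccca
Hsd17b7: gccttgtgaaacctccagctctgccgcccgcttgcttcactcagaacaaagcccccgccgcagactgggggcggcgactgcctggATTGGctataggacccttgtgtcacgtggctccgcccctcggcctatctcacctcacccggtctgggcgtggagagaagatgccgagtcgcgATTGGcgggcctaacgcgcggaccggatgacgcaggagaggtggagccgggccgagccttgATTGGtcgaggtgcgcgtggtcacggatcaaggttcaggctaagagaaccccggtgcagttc
Insig2: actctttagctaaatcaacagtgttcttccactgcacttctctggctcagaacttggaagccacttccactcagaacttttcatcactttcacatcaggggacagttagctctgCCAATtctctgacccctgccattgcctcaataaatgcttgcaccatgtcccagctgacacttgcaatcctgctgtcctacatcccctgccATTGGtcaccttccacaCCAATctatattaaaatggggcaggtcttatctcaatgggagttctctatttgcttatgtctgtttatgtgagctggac
In Idi1 the matches begin 45 and 14 bases before the start. Hsd17b7 holds 3 matches, which begin 165, 73 and 12 bases before its start, and the window of Insig2 holds 3 as well, at 136, 46 and 29 bases. The vitamin D receptor's usual element, a direct repeat with a 3-base spacer (DR3) searched on both strands, matched in 13 of 32851 promoters and in none of the members' windows. With matches this rare over all promoters, their lack in 22 members cannot tell whether the receptor acts on any of them. A match in letters is a description and does not show binding.

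Depth in the hormone experiment ran from 22062866 to 54325515 counts a library; the RPKM files give no counts, so their depth is unknown. From 71.6% to 88.4% of each sum of RPKM lay on rRNA rows. Of the marker genes listed for each cell type, in vehicle cells 7 of 8 osteoblast and 5 of 6 osteocyte genes rose from day 3 to day 35, and all 8 proliferation genes fell (summed level 1646 to 1886 CPM, the usual scaling of counts to library size, at day 3 and 122 to 162 CPM at day 35). In untreated cells all 8 proliferation genes fell by day 35 as listed and after centring (summed 89.85 to 98.02 RPKM at day 3 and 6.64 to 14.6 at day 35), and 6 of 7 osteoblast genes rose. Osteocyte genes were scarce there (summed 1.36 to 1.85 at day 3 and 0.464 to 2.11 RPKM at day 35, with 1 of 6 tested). In untreated cells the adipocyte list summed to 10.8 to 17.6 RPKM at day 3, 24.3 to 45.0 at day 21 and 9.81 to 13.6 at day 35. Of 2 adipocyte genes tested, 1 was higher and 1 lower at day 21 as listed (12.9% of genes higher, 24.1% lower). Chondrocyte genes summed to 10.2 to 16.9 RPKM at day 3 and 8.75 to 15.8 at day 35. The adipocyte list summed to 10.3 to 20.5 CPM in vehicle cells at day 3, 32.6 to 39.7 at day 35, 13.9 to 176 with the hormone at day 3 and 36.2 to 62.8 with it at day 35. With the hormone at day 3, 4 of 7 adipocyte genes tested rose, and of 6 osteocyte genes 2 rose and 3 fell, against 11.4% of all genes higher and 9.09% lower. Of 4 macrophage, 3 endothelial and 2 skeletal muscle genes tested there, none was called and all had positive log2 changes. Those hormone libraries also held more counts on olfactory receptor genes, as given below, and the part of this background was not tested. Adipoq and Cfd had no counts in vehicle cells at day 3, and Plin1 had none in vehicle cells at either day. Macrophage genes summed to 3.34 to 6.34 CPM at day 3 and 26.0 to 30.0 at day 35 in vehicle cells. Chondrocyte genes summed to 70.3 to 166 CPM in vehicle cells at day 3, where Col2a1 had no counts, and to 304 to 401 at day 35 (3 of 5 rose and Sox9 fell), and to 209.5 to 247.4 with the hormone at day 35 (1 of 5, Acan, fell). With the hormone at day 35, 3 of 8 osteoblast genes fell, and all 8 had negative log2 changes (median -0.90). Of 6 osteocyte genes 1 rose and 1 fell there. None of the 8 proliferation genes was called, and all 8 had negative log2 changes. Of all genes 2.41% were higher and 2.14% lower in that comparison. The part of proliferating cells, osteoblasts and osteocytes, adipocytes, macrophages and chondrocytes in the changes below was not tested. In these bulk samples, fewer cells of a type and less RNA per cell cannot be told apart.

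In vehicle cells, day 35 had less mRNA for most enzymes that build cholesterol than day 3 did. Of 29 members tested with edgeR, 13 fell and 3 rose (Benjamini-Hochberg adjusted p below 0.05). Among all 20055 genes tested 14.5% fell and 15.5% rose. The median log2 change was -0.52 over the members and 0.17 over all genes. The falls ran through all 5 mevalonate genes tested, all 3 genes from farnesyl diphosphate to lanosterol and 3 of 8 genes beyond lanosterol, where Ebp rose. Sterol sensors and transporters were mixed, and none of the 3 fatty acid genes passed. Mvd, the mevalonate diphosphate decarboxylase, had 48 counts over all 12 libraries and was not tested. In untreated cells its group means ran from 3.06 to 7.83 RPKM, so the few counts need not mean a low level. Their reason was not tested.

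**Figure D1:**
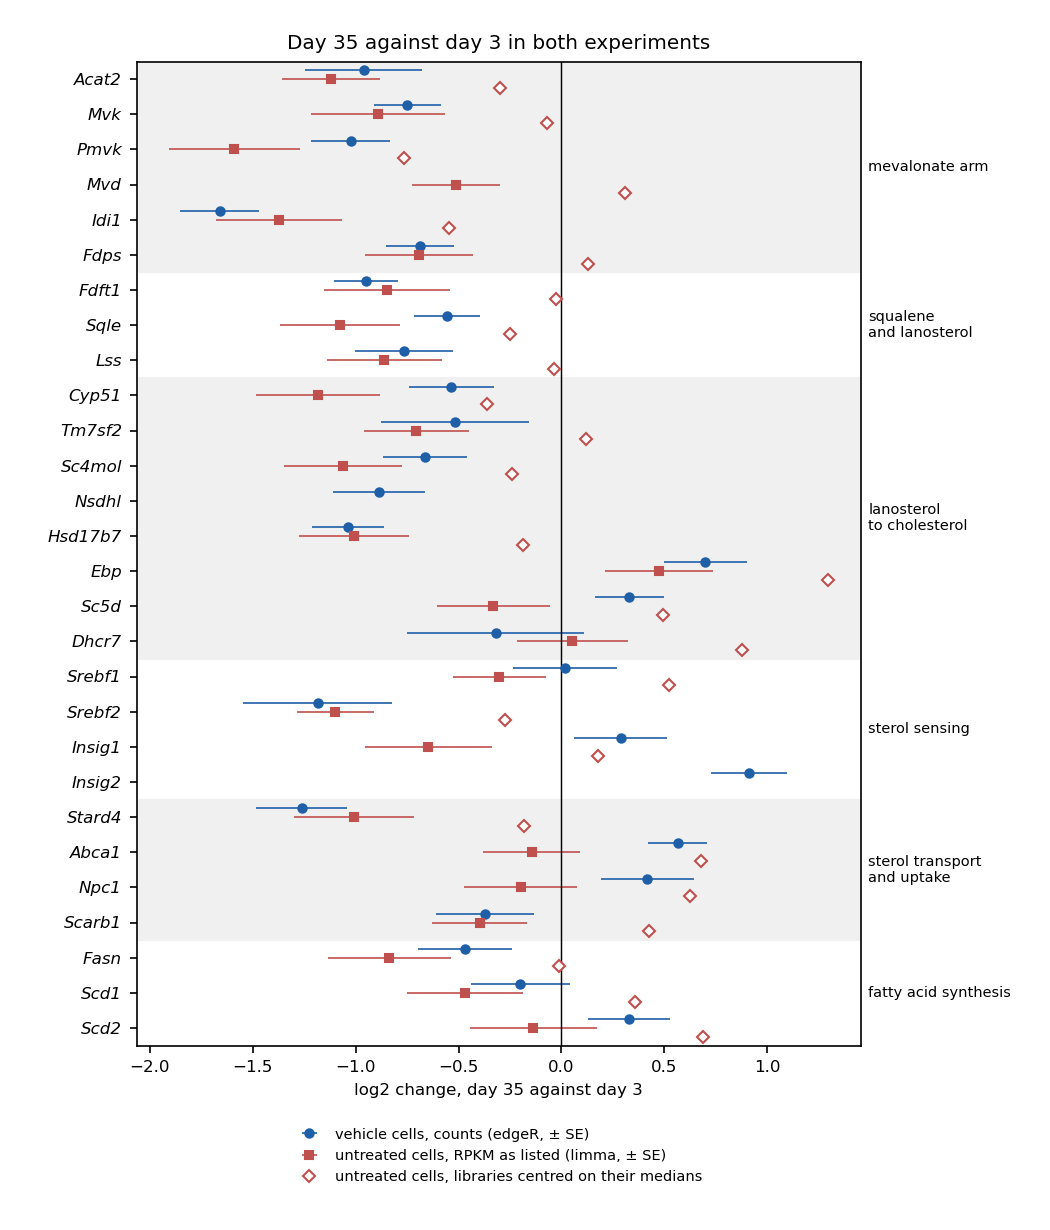
Log2 change from day 3 to day 35 (horizontal axis) for each member (vertical axis, grouped by role; bars are ± SE). Blue circles are vehicle cells, red squares untreated cells as listed, and open diamonds untreated cells after each library was centred on its median; Scap and Abcg1, with few counts, are left out, and Mvd, Nsdhl and Insig2 have points for 1 experiment only. Mevalonate and squalene genes lie left of 0 in vehicle cells, Ebp, Insig2 and Abca1 right of it, and centring moves all diamonds to the right.

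Idi1, the isomerase that interconverts the isoprenoid building blocks, had 328, 248 and 343 CPM in the vehicle libraries at day 3 and 118, 76.9 and 95.5 at day 35. The groups lay far apart, and Idi1 fell by 1.66 on the log2 scale (SE 0.19, adjusted p = 8.85e-06, edgeR), the largest fall among the members. Pmvk, the kinase that adds the second phosphate to mevalonate, had 15.1, 18.6 and 14.0 CPM at day 3 and 8.13, 6.50 and 8.83 at day 35. It fell by 1.02 (SE 0.19, adjusted p = 0.000756), again with no overlap. Mvk, the kinase before it, fell by 0.75 (adjusted p = 0.0023), and Fdps by 0.69 (adjusted p = 0.00523), with every day 35 library below every day 3 library in both. Acat2, a thiolase that joins acetyl-CoA units, fell by 0.96 (adjusted p = 0.0185, edgeR), but vehicle day 3 replicate 2 held 51.1 CPM against 126 and 103 in the others, inside the day 35 range of 42.2 to 53.9. The call for Acat2 was lost without day 3 replicate 1 (adjusted p = 0.0929) or 3 (0.0669), or without day 35 replicate 1 (0.0594) or 2 (0.056).

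Fdft1, the squalene synthase that commits carbon to sterols, had 117, 122 and 98.5 CPM at day 3 and 67.1, 48.7 and 58.8 at day 35 in vehicle cells. It fell by 0.95 (SE 0.16, adjusted p = 0.000233, edgeR) with the groups well apart. Sqle, the squalene epoxidase and a rate-limiting step, had 93.7, 112 and 94.1 CPM at day 3 and 80.5, 54.8 and 68.1 at day 35. Its fall of 0.56 on the log2 scale (log2 change -0.56, SE 0.16, adjusted p = 0.0156) was smaller, and day 35 replicate 1 came closest to the day 3 libraries. Lss, which closes the ring to lanosterol, fell by 0.77 (adjusted p = 0.023, edgeR). Leaving out replicate 2 of day 3 or of day 35 ended the call of Sqle (adjusted p = 0.0603 and 0.0811), and that of Lss also ended without replicate 2 of either day (0.116 and 0.091) or replicate 3 of day 35 (0.0866).

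Beyond lanosterol, Hsd17b7, the 3-ketosteroid reductase, had 141, 161 and 159 CPM at day 3 and 98.3, 64.9 and 61.0 at day 35 in vehicle cells. It fell by 1.04 (SE 0.18, adjusted p = 0.000315, edgeR) and the groups did not overlap. Nsdhl, the sterol dehydrogenase that works just before it, had 20.1, 17.3 and 20.5 CPM at day 3 and 11.2, 8.88 and 11.2 at day 35, a fall of 0.89 (log2 change -0.89, SE 0.22, adjusted p = 0.00711). Sc4mol, the C-4 methyl oxidase, fell by 0.66 (adjusted p = 0.022); without day 3 replicates 1 or 3, or day 35 replicates 2 or 3, its adjusted p was 0.0605 to 0.104. Cyp51, the lanosterol demethylase, had a mean of 425 CPM at day 3 and 293 at day 35 (log2 change -0.54, adjusted p = 0.0642, edgeR; 0.0231 with DESeq2 and 0.0313 without day 3 replicate 2), and Tm7sf2, a sterol C-14 reductase, a log2 change of -0.52 (adjusted p = 0.305). Ebp, the sterol isomerase, went the other way, from 66.6, 57.4 and 55.4 CPM to 73.8, 103 and 114. Its rise of 0.70 (log2, SE 0.20, adjusted p = 0.0165) left no overlap but was lost without day 3 replicate 3 (adjusted p = 0.0628) or day 35 replicates 2 (0.0596) or 3 (0.0788). Sc5d, the lathosterol oxidase, had a log2 change of 0.33 (adjusted p = 0.154), and Dhcr7, which completes cholesterol, -0.32 (adjusted p = 0.618).

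Among the sensors, Insig2, which keeps SREBP in the endoplasmic reticulum, had 33.6, 60.3 and 41.7 CPM at day 3 and 88.9, 78.8 and 87.2 at day 35 in vehicle cells. It rose by 0.91 (log2, SE 0.18, adjusted p = 0.00135, edgeR), and every day 35 library was above every day 3 library. In untreated cells Insig2 was too low to be tested, and its mean was not higher at day 35. Its means there were 0.30 RPKM at day 3, 0.074 at day 7 and 0.18 at day 35. The reason for these low values was not tested. Srebf2 itself had 27.0, 86.2 and 51.3 CPM at day 3 and 34.2, 19.0 and 19.0 at day 35. Its day 3 libraries were spread over a wide range that reached into the day 35 values, and the fall of 1.19 (log2 change -1.19, SE 0.36, adjusted p = 0.022) was lost without day 3 replicate 2 (log2 change -0.70, adjusted p = 0.15) or day 35 replicates 2 (0.0901) or 3 (0.0924). Srebf1, which encodes the SREBP-1 forms that favour fatty acid genes, averaged 37.0 CPM at day 3 and 37.5 at day 35 (log2 change 0.02, adjusted p = 0.971). Insig1, itself a SREBP target, had a log2 change of 0.29 (adjusted p = 0.369). Scap had 96 counts over the 12 libraries, too few to describe a change.

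Stard4, which carries cholesterol between membranes, had 112, 151 and 148 CPM at day 3 and 71.6, 42.4 and 57.8 at day 35 in vehicle cells, a fall of 1.26 with no overlap (log2 change -1.26, SE 0.22, adjusted p = 0.000435, edgeR). Abca1, the pump that loads cholesterol onto apolipoprotein, had 102, 90.5 and 112 CPM at day 3 and 168, 139 and 143 at day 35. It rose by 0.57 (log2, SE 0.14, adjusted p = 0.00726), with the groups apart. Npc1, which releases cholesterol from lysosomes, had a log2 change of 0.42 (adjusted p = 0.185), and Scarb1, the HDL receptor, -0.37 (adjusted p = 0.26). Abcg1, an exporter to HDL, had 408 counts in 12 libraries and a log2 change of 0.55 with an SE of 0.87.

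Fasn, the fatty acid synthase, had 127, 234 and 169 CPM at day 3 and 158, 110 and 115 at day 35 in vehicle cells. The groups overlapped (log2 change -0.47, adjusted p = 0.142, edgeR), although without day 3 replicate 1 Fasn was called lower (-0.64, adjusted p = 0.0367). Scd2, a stearoyl-CoA desaturase, had 1260, 1809 and 1711 CPM at day 3 and 2643, 1579 and 1775 at day 35, where replicate 1 stood above the rest (log2 change 0.33, adjusted p = 0.235). Its relative Scd1 averaged 570 and 496 CPM (log2 change -0.20, adjusted p = 0.574). Per kilobase of the gene's merged exons, Scd2 had the highest level of all members at day 3 (292 CPM per kilobase), before Sc4mol (246.7), Insig1 (149), Scd1 (118), Cyp51 (108) and Idi1 (101). At day 35 Insig1 (182 CPM per kilobase) stood above Sc4mol (156), and Idi1 had come down to 32.0.

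**Figure D2:**
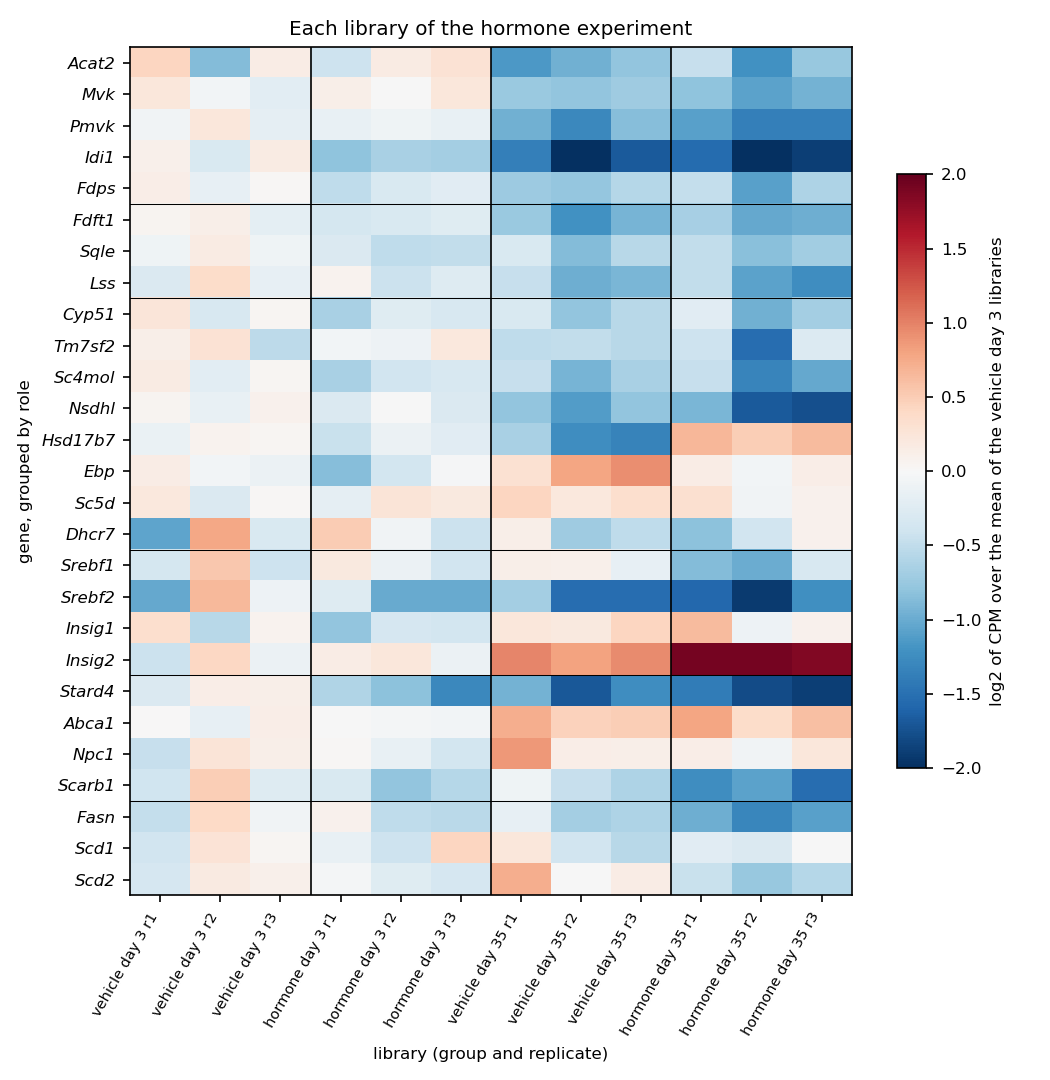
Each row is a member and each column a library of the hormone experiment; colour is the log2 ratio of its CPM to the mean of the 3 vehicle day 3 libraries, on a scale limited to ± 2. Mvd, Scap and Abcg1, with few counts, are left out. The lowest value is -2.11 and the highest 1.92; Idi1 and Stard4 are blue in most libraries after the first group, Insig2 is darkest red in the 3 hormone libraries at day 35, and in the vehicle day 3 group replicate 2 is the lowest library for Acat2 and Insig1 and the highest for Srebf2 and Dhcr7.

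In the separate time course of untreated cells most members had their highest mean RPKM in the first 2 weeks and their lowest at day 35. The peak fell on day 3 for 7 of the 26 members tested, on day 7 for 9 and on day 14 for 9, and the lowest mean fell on day 35 for 23. These counts use the values as listed and were not made for all genes, whose median also fell by day 35. Nsdhl, Scap, Insig2 and Abcg1 were below 1 RPKM in too many libraries to be tested. With the values as listed, 18 of the 26 members differed among the days by limma's F test (any of the 6 days), against 72.5% of 9933 genes. At day 35 the test called 16 members lower against day 3 and 0 higher (17 had an unadjusted p below 0.05), while 51.5% of all genes were lower and 5.63% higher. The members' median log2 change of -0.77 was close to the -0.69 of all genes.

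The number of members called changed with the scaling. Once each library was centred on its median, 8 of the 26 members differed at day 35, of which 7 were higher (Ebp, Sc5d, Dhcr7, Srebf1, Abca1, Npc1 and Scd2) and 1, Pmvk, lower. Among all genes 29.5% were then higher and 21.5% lower. With centring, 7 members differed among the days (56.1% of genes). The rRNA rows took 75.6% to 80.1% of the RPKM at day 3 and 81.3% to 88.4% at day 35. Rescaled to the rows other than rRNA, 9 members were lower and 1 higher. By the run numbers in the deposited files' names, which nothing else in the labels bears on, replicates 2 and 3 of day 35 shared a sequencing run with no other library, and with the run as a term 3 members were called (2 lower, 1 higher). Replicate 1 of every day came from 1 run. In that run, with 1 library a day and so no test, 18 of 26 members were lower at day 35 than at day 3, with a median log2 change of -0.29 over the members and -0.37 over 9933 genes. Day and run cannot be told apart for the other day 35 libraries. The shares of all genes called after the rescaling or with the run term were not counted. Nor was the share of all genes lower in the shared run, so these counts cannot be read as particular to the members.

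Pmvk was the 1 member that fell at day 35 by both scalings. Its untreated libraries held 2.82, 4.69 and 3.91 RPKM at day 3 and 0.656, 1.63 and 0.634 at day 35, and the groups lay apart. The log2 change was -1.59 as listed (SE 0.32, adjusted p = 0.000274, limma) and -0.77 after centring (adjusted p = 0.0358), and it was -1.52 between the 2 libraries of the shared run. Srebf2 went from 1.52, 1.93 and 1.35 RPKM to 0.727, 0.372 and 0.365 (log2 change -1.10, adjusted p = 6.14e-05 as listed, limma). Centring left it at -0.28 (adjusted p = 0.178).

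Acat2 had 1.48, 1.31 and 1.71 RPKM at day 3 and 0.636, 0.132 and 0.577 at day 35 in untreated cells. All day 35 libraries were below (log2 change -1.12, adjusted p = 0.000507 as listed, limma), and after centring the change was -0.30 (adjusted p = 0.275). Idi1 had 2.54, 2.14 and 2.92 RPKM at day 3 and 1.45, 0.493 and 0.323 at day 35, where replicate 1 was the highest (log2 change -1.37, adjusted p = 0.000811; centred -0.55, adjusted p = 0.072). Cyp51 had 11.5, 10.3 and 10.3 RPKM at day 3 and 7.28, 3.51 and 3.34 at day 35, again with replicate 1 above the other two (log2 change -1.18, adjusted p = 0.00245, limma; centred -0.36, adjusted p = 0.168). Hsd17b7 went from 3.12, 3.51 and 3.25 RPKM to 1.94, 0.837 and 1.55, with no overlap (log2 change -1.01, adjusted p = 0.00342; centred -0.18, adjusted p = 0.496).

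The other members called at day 35 in untreated cells as listed were Mvk, Mvd, Fdps, Fdft1, Sqle, Lss, Tm7sf2, Sc4mol, Stard4 and Fasn, with log2 changes from -0.51 (Mvd) to -1.07 (Sqle). None of these 10 was called after centring. The calls of Mvk, Mvd, Fdps, Fdft1, Lss, Tm7sf2 and Fasn were also lost when single libraries were left out: the adjusted p (limma) then rose to at most 0.142 for Mvk, 0.119 for Mvd, 0.145 for Fdps, 0.0974 for Fdft1, 0.059 for Lss, 0.141 for Tm7sf2 and 0.113 for Fasn, with day 3 replicates 1 to 3 and day 35 replicates 2 and 3 among the libraries concerned. In Fasn alone of the 16 members called did the days overlap, since day 35 replicate 1 held 5.36 RPKM and day 3 replicate 3 held 5.24. Overlap was not counted over all genes. Not called as listed were Ebp (log2 change 0.47, adjusted p = 0.131), Sc5d, Dhcr7, Srebf1, Insig1 (-0.65, adjusted p = 0.0801), Abca1, Npc1, Scarb1, Scd1 and Scd2. Single libraries also held back calls: without day 35 replicate 1, Insig1 and Scd1 were called lower (adjusted p = 0.0336 for each), without day 3 replicate 1 Insig1 was (0.0393), and without day 35 replicate 3 Ebp was called higher (0.0197). Ebp had 8.09, 8.88 and 8.57 RPKM at day 3 and 17.3, 12.4 and 8.02 at day 35. Its centred change was 1.30 (adjusted p = 6.23e-05, limma), and 1.05 between the libraries of the shared run.

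**Figure D3:**
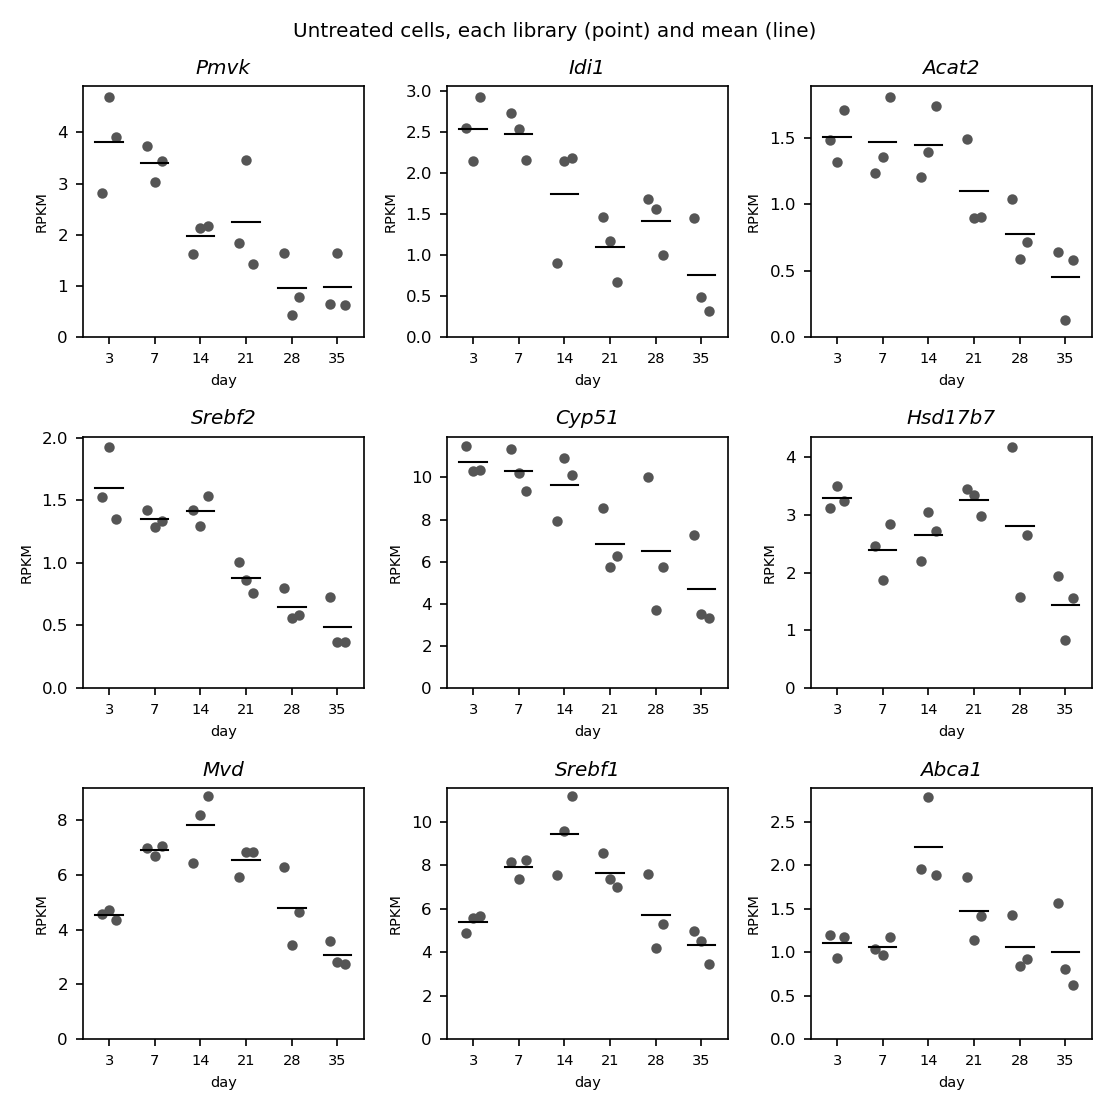
RPKM (vertical axis, from 0) by day (horizontal axis) in untreated cells for 9 members; points are libraries and lines the mean of 3. Pmvk, Idi1, Acat2, Srebf2, Cyp51 and Hsd17b7 are lowest or near their lowest at day 35, while Mvd, Srebf1 and Abca1 have their highest mean at day 14.

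Between those ends, few members were called in untreated cells with the values as listed, and more were called after centring. At day 7, 1 member rose as listed, Dhcr7, from 1.03, 0.749 and 0.448 RPKM to 2.05, 1.71 and 1.10 (log2 change 0.77, adjusted p = 0.0403, limma), against 15.8% of genes higher and 9.84% lower. Its call was lost without day 3 replicates 2 or 3 or day 7 replicates 1 or 2 (adjusted p 0.0924 to 0.174), after rescaling to rows other than rRNA (0.105), with a pseudocount of 0.1 (0.0568) and with no filter on low values (0.0743). With the rescaling and with no filter a different member was called in its place. Centred, 4 members were higher at day 7 (20.1% of genes higher, 15% lower). At day 14, 3 rose as listed (14.4% of genes higher, 15.3% lower) and, centred, 6 were higher and 1 lower (22.3% and 18.7% of genes).

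The 3 members that rose by day 14 were Mvd, Srebf1 and Abca1. Mvd had 4.57, 4.71 and 4.35 RPKM at day 3 and 6.43, 8.18 and 8.86 at day 14 (log2 change 0.71, adjusted p = 0.0159, limma). Srebf1 had 4.88, 5.60 and 5.68 RPKM at day 3 and 7.56, 9.61 and 11.2 at day 14 (log2 change 0.74, adjusted p = 0.0173). In Abca1 the values went from 1.20, 0.932 and 1.18 RPKM to 1.95, 2.78 and 1.89 (log2 change 0.75, adjusted p = 0.0219). Every day 14 library was above every day 3 library in all 3 genes, and each was called after centring too. Leaving out single libraries (day 14 replicates 2 or 3, or a day 3 library) ended these calls, with adjusted p up to 0.0733 for Mvd, 0.0878 for Srebf1 and 0.109 for Abca1. With the sequencing run as a term the call of Mvd also ended (0.0679).

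At day 21, 2 members were lower as listed, Idi1 (log2 change -0.95, adjusted p = 0.0193, limma) and Srebf2 (-0.60, adjusted p = 0.0163), with 12.9% of genes higher and 24.1% lower. Leaving out replicate 3 of day 3 or of day 21 ended the call of Idi1 (adjusted p = 0.0718 and 0.105), and leaving out replicate 2 of day 3 or replicate 3 of day 21 ended that of Srebf2 (0.103 and 0.0679). Pmvk was called lower without day 21 replicate 2 (adjusted p = 0.0269). Centred, 5 members were higher and 1, Idi1, lower (26.8% and 21.6% of genes). At day 28, 5 were lower as listed (10.4% of genes higher, 31.2% lower): Pmvk (-1.63, adjusted p = 0.000327), Srebf2 (-0.87, adjusted p = 0.000979), Stard4, Acat2 and Cyp51. After centring Pmvk and Srebf2 were lower and 6 members higher (21.9% of genes lower, 28.7% higher). The calls of Stard4, Acat2 and Cyp51 at day 28 did not survive leaving out single libraries: the adjusted p reached 0.118 for Stard4 and 0.12 for Acat2 without day 28 replicate 2, and 0.251 for Cyp51 without the same library; any of the 3 day 3 libraries or day 28 replicate 3 also ended the calls of Acat2 and Cyp51, and day 3 replicate 1 that of Stard4. Sc4mol and Sqle were called lower without day 28 replicate 1 (adjusted p = 0.0152 and 0.0116).

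The 2 experiments, which share no library, could be compared for 25 members. Of these, 12 fell at day 35 in both with the untreated values as listed: Acat2, Mvk, Pmvk, Idi1, Fdps, Fdft1, Sqle, Lss, Sc4mol, Hsd17b7, Srebf2 and Stard4. Among all 9372 genes tested in both, 21.8% were lower in both and 4.69% higher in both. Cyp51, Tm7sf2 and Fasn were called lower in untreated cells alone, and none in vehicle cells alone. Cyp51 was near the threshold in vehicle cells (log2 change -0.54, adjusted p = 0.0642, edgeR). There it was called lower in 7 of 13 alternatives. The difference between experiments was not tested. After centring of the untreated values, 1 of the 12, Pmvk, was still lower in both, Ebp and Abca1 were higher in both, and no member was called in opposite directions. With centring 14.4% of all genes were lower in both and 13.9% higher in both.

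The hormone was tested at both days in the same 12 libraries. In day 3 cells, 24 h of 1,25(OH)2D3 lowered Idi1 and Stard4, and no member rose. Of 20055 genes 11.4% rose and 9.09% fell, and the median log2 change was -0.20 over the 29 members and 0.26 over all genes. These comparisons use the same day 3 vehicle libraries as the comparison of days above. Olfactory receptor genes, which belong to sensory neurons of the nose, took more of the reads in the 3 hormone libraries at day 3: the 1122 such genes held 0.0511% to 0.0748% of counts, against 0.00408% to 0.00562% in vehicle at day 3. The shares and the median over all genes were not recomputed without this background. Its part in the gap between members and all genes was not tested.

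Idi1 had 176, 196 and 192 CPM with the hormone at day 3, against 328, 248 and 343 with vehicle. The groups lay apart (log2 change -0.70, SE 0.19, adjusted p = 0.0208, edgeR). Stard4 had 90.6, 77.6 and 56.2 CPM with the hormone and 112, 151 and 148 with vehicle, also without overlap (log2 change -0.88, SE 0.22, adjusted p = 0.0147). After subtraction of the background seen on olfactory receptor genes the changes were -0.60 for Idi1 and -0.78 for Stard4, and both kept their call. With scaling to library size alone, which leaves out the TMM factors, neither was called (Idi1 -0.31, adjusted p = 0.188; Stard4 -0.48, adjusted p = 0.126), and Mvk (0.51, adjusted p = 0.0285) and Sc5d (0.50, adjusted p = 0.0262) were called higher. The call of Idi1 was lost without any of the hormone replicates 1 (adjusted p = 0.059), 2 (0.0523) or 3 (0.0628), and that of Stard4 without hormone replicate 3 (0.072).

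Several other enzymes were below their vehicle libraries at day 3 without passing the test. Every hormone library was below every vehicle library for Fdps (log2 change -0.35, adjusted p = 0.136), Fdft1 (-0.30, adjusted p = 0.159), Sqle (-0.43, adjusted p = 0.0674) and Sc4mol (-0.44, adjusted p = 0.122, edgeR). This holds for TMM-scaled values, and the share of all genes with such a separation was not counted. The TMM factors were 1.18 to 1.29 in the hormone libraries and 0.909 to 0.959 in the vehicle libraries at day 3. With library size alone the log2 changes were 0.04 for Fdps, 0.09 for Fdft1, -0.03 for Sqle and -0.05 for Sc4mol. Sqle was called with DESeq2 (adjusted p = 0.0469), with no filter on low counts (0.0272) and without vehicle replicate 1 (0.0347) or 3 (0.0486). Scarb1 (-0.54, adjusted p = 0.11) and Srebf2 (-0.71, adjusted p = 0.157) were called without vehicle replicate 1 (adjusted p = 0.0366 for Scarb1 and 0.0213 for Srebf2), and Insig1 (-0.49, adjusted p = 0.129) without vehicle replicate 2 (0.0412). Acat2, Hsd17b7 (-0.26, adjusted p = 0.284), Insig2 (0.10, adjusted p = 0.71), Abca1, Scd1 and Scd2 (-0.20, adjusted p = 0.457) were among those not called.

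**Figure D4:**
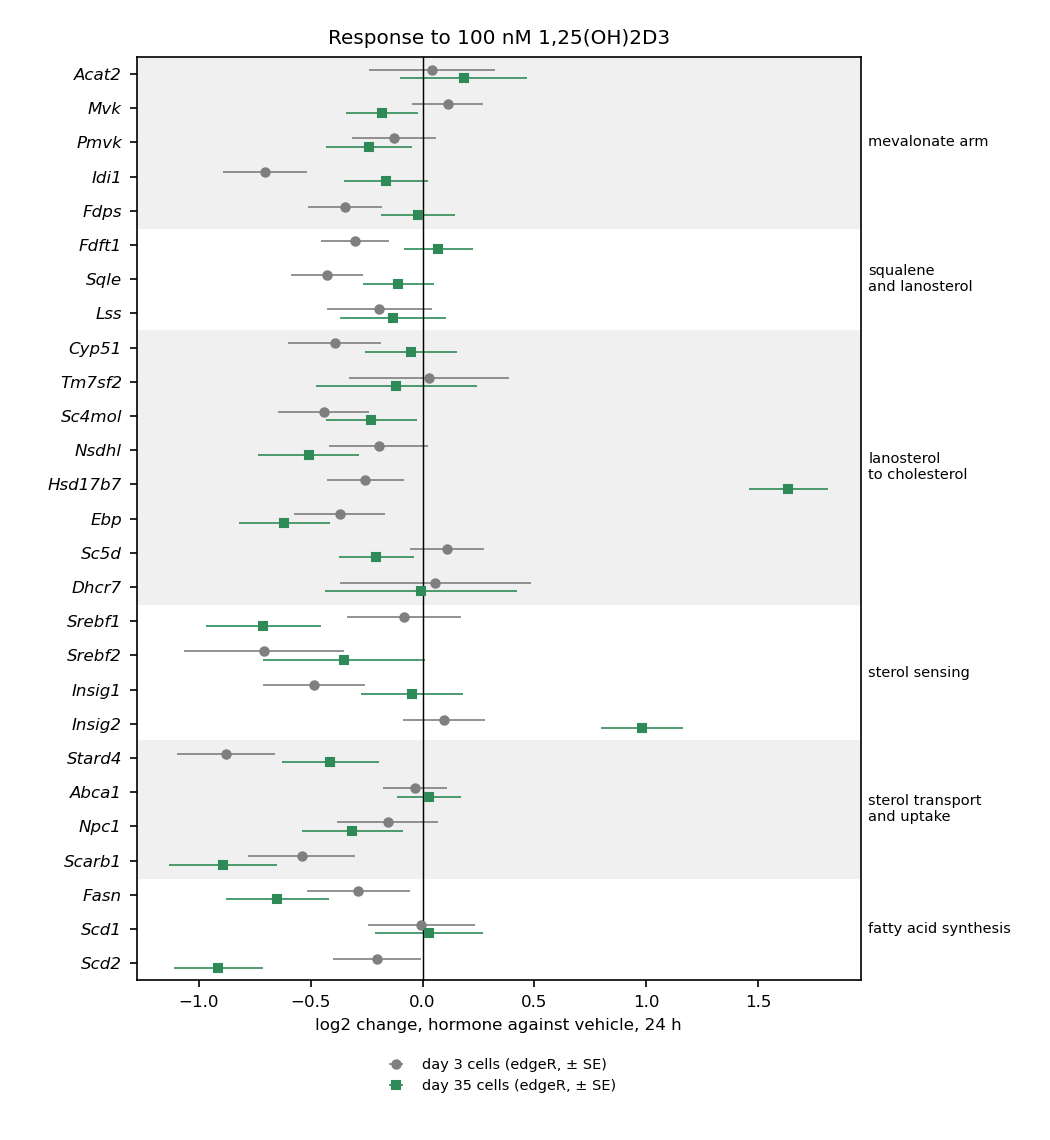
Log2 change with 24 h of hormone (horizontal axis, ± SE) for each member (vertical axis, grouped by role) in day 3 cells (grey circles) and day 35 cells (green squares); Mvd, Scap and Abcg1 are left out. Hsd17b7 and Insig2 stand to the right at day 35 (1.63 and 0.98) and at -0.26 and 0.10 at day 3, while Idi1 and Stard4 lie farther left at day 3.

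In day 35 cells the hormone raised Hsd17b7 and Insig2 and lowered Scd2 and Scarb1, with 2.41% of all genes higher and 2.14% lower. The median log2 change was -0.16 over the members and 0.02 over all genes. No mevalonate, squalene or lanosterol gene was called in edgeR, and none of those 8 had an unadjusted p below 0.05; their log2 changes ran from -0.24 to 0.18.

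Hsd17b7 had 98.3, 64.9 and 61.0 CPM in vehicle libraries at day 35 and 244, 215 and 237 with the hormone. The libraries of the groups were far apart, and the hormone values also lay above the 141 to 161 CPM of vehicle cells at day 3. The change was 1.63 on the log2 scale, 3.11-fold (SE 0.18, adjusted p = 4.06e-05, edgeR). At day 3 the same gene had 112, 142 and 132 CPM with the hormone. The difference between the responses was itself called (log2 1.89, SE 0.25, adjusted p = 0.000206), the only member of 29 for which it was, against 4.14% of genes with a higher and 2.94% with a lower response at day 35. Hsd17b7 kept both calls in every alternative run, with an adjusted p of at most 0.00174 for the difference. In 1 of the 3 hormone libraries at day 35, replicate 2, 0.0433% of counts lay on olfactory receptor genes, against 0.0028% to 0.0152% in vehicle; after background subtraction the change at day 35 was 1.70.

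Insig2 had 88.9, 78.8 and 87.2 CPM with vehicle at day 35 and 169, 171 and 163 with the hormone, each group within a narrow range. It rose by 0.98 (log2, 1.97-fold, SE 0.18, adjusted p = 0.00423, edgeR). With the hormone at day 3 it had 50.0, 53.1 and 41.9 CPM, inside the range of its vehicle libraries. The difference between the responses was 0.88 (SE 0.26, adjusted p = 0.0524), and it was called with DESeq2 (adjusted p = 0.018), with no filter on low counts (0.0192), after background subtraction (0.0499) and without vehicle day 3 replicates 1 (0.00421) or 3 (0.0351), vehicle day 35 replicate 3 or any of the 3 hormone day 35 libraries. Insig2 was therefore higher at day 35 than at day 3 in vehicle cells and higher again with the hormone there, while Hsd17b7 was lower at day 35 in vehicle cells and higher with the hormone. The promoters of both are shown above.

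Scd2 had 2643, 1579 and 1775 CPM with vehicle at day 35 and 1167, 942 and 1077 with the hormone. All hormone libraries were lower (log2 change -0.91, SE 0.20, adjusted p = 0.0137, edgeR), although the call was lost without vehicle replicate 1 (-0.66, adjusted p = 0.0746), hormone replicate 2 (0.0702) or hormone replicate 3 (0.0662). Scarb1 had 27.2, 21.1 and 18.8 CPM with vehicle and 12.3, 13.9 and 10.1 with the hormone, again without overlap (log2 change -0.89, SE 0.24, adjusted p = 0.0498, at the threshold). Scarb1 was not called without any 1 of the 6 day 35 libraries (adjusted p 0.0634 to 0.232), with DESeq2 size factors, with library size alone, with no filter, with the replicate number as a block (0.0582) or after background subtraction. The difference of the responses between the days was -0.71 for Scd2 (adjusted p = 0.144) and -0.35 for Scarb1 (adjusted p = 0.557). Scd2's difference was called with DESeq2 (adjusted p = 0.0352) and with library size alone (0.0328), where that of Sc5d was called too (-0.68, adjusted p = 0.0483).

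**Figure D5:**
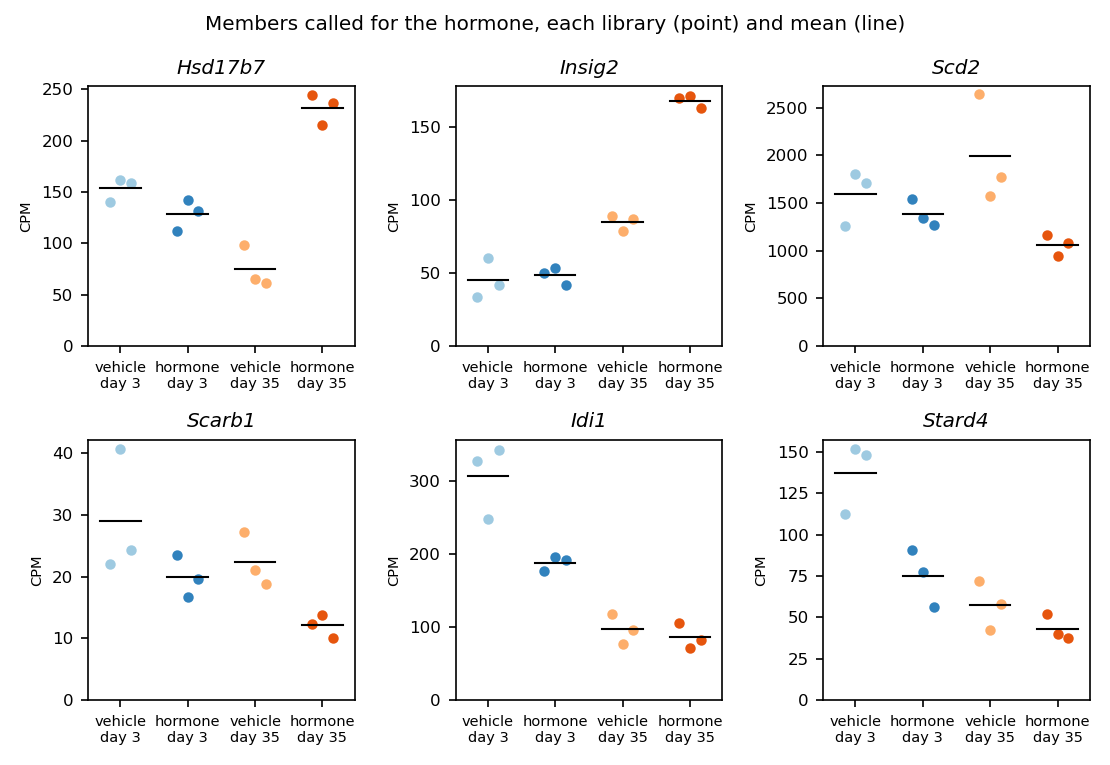
CPM (vertical axis, from 0) in the 4 groups (horizontal axis) for the 6 members called for the hormone; points are libraries and lines the mean of 3. At day 35 the 3 hormone libraries of Hsd17b7 and Insig2 lie above all other libraries of the gene, those of Scd2 and Scarb1 lie below all others, and those of Idi1 and Stard4 lie within or below the day 35 vehicle range.

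The rest of the members at day 35 were not called. Ebp had 73.8, 103 and 114 CPM with vehicle and 66.7, 57.7 and 65.5 with the hormone, with no overlap but an adjusted p of 0.124 (log2 change -0.62, edgeR), or 0.047 without vehicle replicate 1. Srebf1 (-0.71, adjusted p = 0.172), Fasn (-0.65, adjusted p = 0.165) and Mvk (-0.18, adjusted p = 0.715) also had each hormone library below each vehicle library. The share of all genes separated in this way was not counted here either. Idi1 (-0.16, adjusted p = 0.791) and Stard4 (-0.41, adjusted p = 0.439), the members lowered at day 3, were not called at day 35, and the differences of their responses were 0.54 (adjusted p = 0.232) and 0.47 (adjusted p = 0.373). Fasn was called when the 2 day 35 groups were fitted alone (adjusted p = 0.0333). Idi1's difference was called without hormone day 35 replicate 2 (0.78, adjusted p = 0.0482). Acat2, Pmvk, Fdps, Fdft1, Sqle, Lss, Cyp51, Tm7sf2, Sc4mol, Nsdhl, Sc5d, Dhcr7, Srebf2, Insig1, Abca1, Npc1 and Scd1 had log2 changes between -0.51 (Nsdhl) and 0.18 (Acat2).

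A list of 45 further genes of sterol and fatty acid metabolism, drawn up with earlier results of these data known, gives the surroundings. Of 43 tested in vehicle cells, 6 rose and 12 fell at day 35 (median log2 change -0.14), where 15.5% of all genes rose and 14.5% fell (median 0.17). The genes that fell with the smallest adjusted p were Cav1, the caveolar coat protein that binds cholesterol (log2 change -2.37, adjusted p = 7.9e-07, edgeR), Ch25h, which makes 25-hydroxycholesterol (-2.60, adjusted p = 3.45e-05), and the elongase Elovl6 (-1.33, adjusted p = 3.95e-05). Those that rose included Cyp7b1, an oxysterol hydroxylase (1.66, adjusted p = 0.000397, edgeR), and Npc2, the lysosomal partner of Npc1 (0.74, adjusted p = 0.00163). In untreated cells as listed 2 of 39 rose and 20 fell by day 35, with 5.63% of all genes higher and 51.5% lower, so the share that fell was close to that of all genes. After centring 8 rose and 8 fell, with 29.5% of all genes higher and 21.5% lower.

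With the hormone at day 3, none of the 43 genes rose and 8 fell in edgeR (15 had an unadjusted p below 0.05), against 11.4% of all genes higher and 9.09% lower. The falls were led by Cav1 (674 to 146 CPM), Ch25h (9.19 to 1.38 CPM) and Soat1, which esterifies cholesterol for storage (174 to 98.9 CPM, log2 change -0.82, adjusted p = 0.00184). At day 35, where 2.41% of all genes were higher and 2.14% lower, the hormone raised 1 of the 43, Soat1 (133 to 205 CPM, log2 change 0.63, adjusted p = 0.0209) and lowered 1, Me1, the malic enzyme that supplies NADPH (213 to 97.8 CPM, -1.12, adjusted p = 0.00522). The responses differed between the days for Soat1 (1.44, adjusted p = 0.000474), Ch25h (3.03, adjusted p = 0.001) and Cav1 (1.55, adjusted p = 0.00426). Apart from centring in untreated cells, the alternatives were run for the members and not for these further genes. Whether these calls depend on the scaling, the background or single libraries was therefore not tested.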

How the data were processed

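The untreated libraries were deposited as RPKM per gene and the hormone libraries as whole-number counts per gene, under file names that say RPKM; both units were read from the values. Per the submitters' processing notes, reads were aligned with TopHat to mm9; the counting step is not given in the sources used here. Rows sharing a symbol were reduced to 1 value (the highest mean for RPKM, the sum for counts). For RPKM, limma (3.58.1) was fitted to log2(RPKM + 0.5), which understates changes of low genes, over all 18 libraries; a gene needed 1 RPKM or more in 3 or more of them. For counts, edgeR's quasi-likelihood test (4.0.16) was fitted over 12 libraries after filterByExpr and TMM; CPM use TMM-scaled library sizes. All p-values are two-sided, adjusted by Benjamini-Hochberg over every gene tested, with a threshold of 0.05; DESeq2 (1.42.0) was an alternative, all in R 4.3.3. The scripts were tested on simulated data.

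The members and lists were chosen with earlier results of these data known. All 31 members are named. Values per library are given at least for the 2 members of each role with the smallest adjusted p in vehicle cells, the 6 with the smallest in untreated cells at day 35, and those called for the hormone. Promoters are RefSeq's on GRCm38.p6, not the mm9 of the alignments. Values of CPM per kilobase divide by all exons of a gene merged, from GENCODE's annotation of GRCm38, also not mm9. The alternatives were other scalings, filters and pseudocounts, a replicate block, the sequencing run, background subtraction and leaving out each library.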

Additional observations from a re-analysis of the deposited data

Results flagged for a closer look

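The response of Hsd17b7 to the hormone differed between the days by the test of the difference itself: the log2 response at day 35 minus that at day 3 was 1.89 (adjusted p = 0.000206, edgeR, 3 libraries a group). Its change was 1.63 at day 35 and -0.26 at day 3. Groups of 3 libraries were not tested for single outlying samples.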

How the results depend on the processing

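In untreated cells the counts of members called moved with the scale, the sequencing run and the groups fitted. Centring gave 4 members at day 7, 7 at day 14, 6 at day 21, 8 at day 28, 8 at day 35 and 7 among any days, against 1, 3, 2, 5, 16 and 18 as listed. Quantile normalization gave 6 at day 14, 5 at day 21, 7 at day 35 and 5 among any days, and rescaling to rows other than rRNA gave 6 at day 14, 5 at day 21 and 10 at day 35. A pseudocount of 0.1 gave 0 at day 7. With the sequencing run as a term there were 2 at day 7, 1 at day 21, 3 at day 28, 3 at day 35 and 6 among any days, and with only the 2 groups compared 7 at day 7, 6 at day 14 and 5 at day 21. Of the 16 members called at day 35 as listed, 1 was also called after centring, 2 with quantile normalization, 9 after rescaling and 2 with the run. Apart from centring, the shares of all genes called were not counted for the alternatives in this section.

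Centring adds 1 shift to every gene of a library, so the value as listed fixes which members change sign. At day 35 in untreated cells 8 did, where they or their value as listed had been called: Abca1 0.68, Fdps 0.13, Mvd 0.31, Npc1 0.62, Sc5d 0.49, Scd2 0.69, Srebf1 0.52 and Tm7sf2 0.12 on the log2 scale. Quantile normalization turned 6 of them: Abca1 0.70, Fdps 0.11, Mvd 0.26, Npc1 0.66, Srebf1 0.42 and Tm7sf2 0.12.

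For the difference of the hormone responses 1 member was called in the test reported, 3 with library size alone, 3 with DESeq2, 2 with no filter on low counts and 2 after background subtraction. Leaving out 1 library gave 0 to 1 members at day 7, 0 to 3 at day 14, 0 to 3 at day 21, 2 to 7 at day 28, 10 to 21 among any days (10 without day 35 replicate 3), 10 to 16 in vehicle cells (10 without day 35 replicate 2), 0 to 5 for the hormone at day 3, 2 to 3 for the hormone at day 35 and 1 to 3 for the difference. The causes were not tested.

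Replicate numbers match across groups. Deviations of same-numbered untreated libraries correlated at 0.0578 to 0.584, (median 0.269, against -0.301 for libraries with other numbers), with 4 of 45 pairs at or below 0.1, and 8 of 18 libraries correlated best with their own number. Those of the hormone experiment correlated at -0.487 to 0.491 (4 of 12 best with their own). Each deviation was taken from the mean of its own group, so the 2 medians are tied to each other and -0.301 is no independent baseline. In untreated cells 41 of 45 pairs passed 0.1, and replicate 1 of every day shared a run. Because not every pair passed, the tests reported did not take the numbers as pairs, and a replicate block was run as an alternative. With the replicate number as a block 5 members were called at day 14 in place of 3, 17 at day 35 in place of 16 and 22 among any days in place of 18, and in the hormone experiment 16 between the days, 2 at day 3, 3 at day 35 (Scarb1 was lost) and 1 for the difference. RPKM without counts give no depth, and Mvd, Scap and Abcg1 had too few counts in the hormone experiment for a change to be detectable.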
